A study of Ovis aries with 115 samples.

Results

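EGFL6 (ENSOARG00000011304 in the Ensembl annotation of the sheep genome) was 1 of 27054 genes counted in the cervix of ewes and 1 of 14811 that passed the filter on low counts. It was chosen because its level differed between Belclare and Suffolk at the synchronised follicular phase, so every value from those ewes is given as a description with no test. RNA was sequenced from the cervix of 115 multiparous ewes, collected post mortem, and all but 1 library could be placed in 12 groups of 8 to 11 ewes, 1 library per ewe. The groups were 4 breeds, Belclare and Suffolk kept in Ireland and Fur and Norwegian White Sheep (NWS) kept in Norway, each in 3 states: the follicular phase of a synchronised cycle, the luteal phase of a synchronised cycle and the follicular phase of a natural cycle. Synchronised ewes carried a progestagen vaginal sponge and received equine chorionic gonadotropin when it was removed, whereas natural ewes were not synchronised. A luteal group in a natural cycle was not analysed here. Since each breed was kept in 1 country, breed and country cannot be told apart in comparisons of an Irish with a Norwegian breed.

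EGFL6, also known as MAEG, is a secreted protein of the extracellular matrix that carries EGF-like repeats, an RGD motif that integrins bind and a MAM domain. It is best known from basement membranes around hair follicles, where the integrin formed by ITGA8 and ITGB1 is a receptor for it. The cervix is a matrix-rich organ whose collagen, glycoproteins and glandular secretions are remodelled under oestrogen and progesterone, so the states of the cycle set a background against which a matrix gene can be read.

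EGFL6 was a low-abundance transcript that was counted in every ewe. Its counts ran from 4 to 207 per library, with total counts of 12238996 to 31261671 (median 17835128.5), and 0 ewes had 3 counts or fewer. Expressed as CPM, the count scaled to a fixed library size, on library sizes scaled by the trimmed mean of M-values (TMM), its mean over all ewes was 2.69 CPM, against a median of 23.8 CPM over the tested genes, and 89.2% of tested genes had a higher mean. These CPM values are not corrected for gene length. The spread among ewes was wider than counting error: the coefficient of variation within a group was 30.6% to 99.6%, whereas counting alone would give 10.8% to 19.9%.

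Levels in Belclare ewes were the highest and most spread at the synchronised follicular phase, from 1.7 to 11.2 CPM with a median of 4.06 (mean 4.76 ± 3.1, SD, n = 10). At the synchronised luteal phase they ran from 2.01 to 5.97 CPM with a median of 3.34 (3.42 ± 1.29, SD, n = 10). In the natural follicular phase they ran from 0.584 to 5.84 CPM with a median of 2.63 (2.76 ± 1.59, SD, n = 10). The 3 states of Belclare therefore overlapped, and the ewes above 6 CPM were all from the synchronised follicular phase.

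In Fur ewes the natural follicular phase held the highest median, 3.48 CPM, with a range of 1.46 to 8.92 (3.77 ± 2.14, SD, n = 10). The synchronised luteal phase ran from 1.25 to 6.83 CPM with a median of 2.71 (3.33 ± 2.01, SD, n = 9). The synchronised follicular phase ran from 1.56 to 5.89 CPM with a median of 2.55 (2.99 ± 1.49, SD, n = 8). As in Belclare, the 3 Fur states covered much the same range.

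NWS and Suffolk ewes filled most of the lower end. NWS ran from 0.561 to 6.32 CPM in the natural follicular phase (median 2.36, 2.71 ± 1.81, SD, n = 10), from 0.891 to 2.91 at the luteal phase (median 1.72, 1.75 ± 0.635, SD, n = 8) and from 0.445 to 2.61 at the synchronised follicular phase (median 1.47, 1.53 ± 0.729, SD, n = 10). Suffolk ran from 0.806 to 2.41 CPM at the luteal phase (median 1.92, 1.77 ± 0.543, SD, n = 10), from 0.305 to 3.22 at the synchronised follicular phase (median 1.36, 1.36 ± 0.759, SD, n = 11) and from 0.661 to 6.8 in the natural follicular phase (median 1.31, 2.02 ± 2.01, SD, n = 8). In the last group 1 ewe, replicate 5, stood at 6.8 CPM and the next at 2.32.

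**Figure D1:**
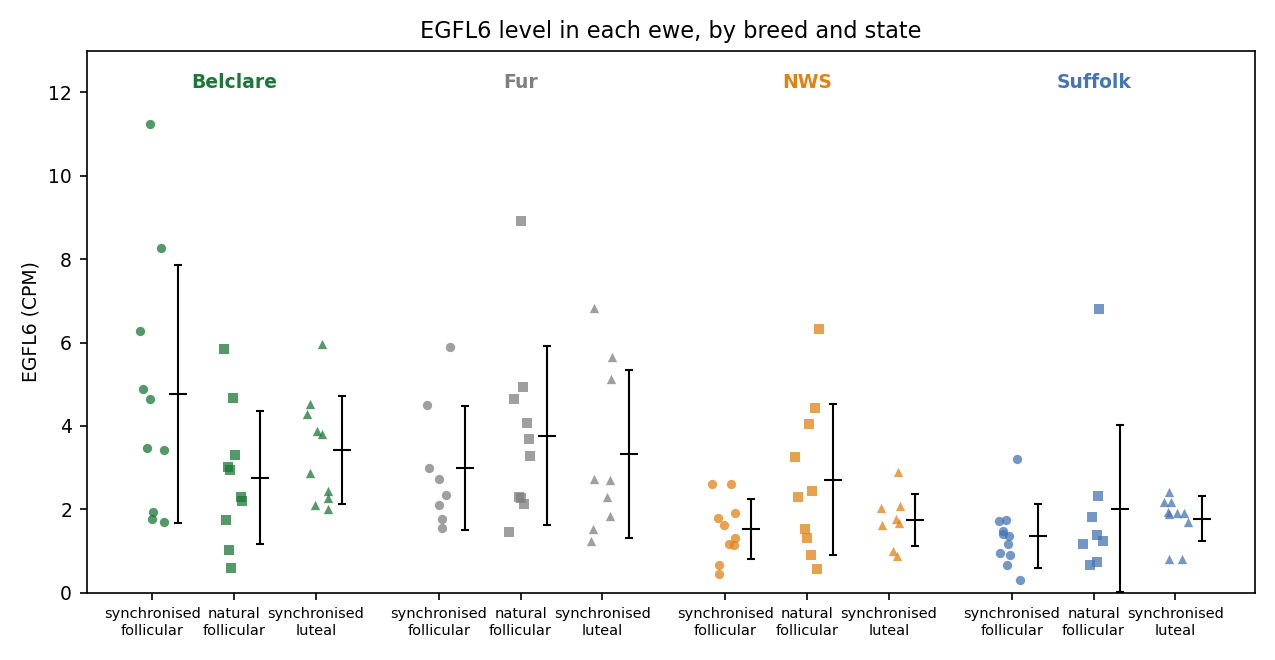
EGFL6 level (CPM, linear axis) in each mapped ewe, grouped by breed and state, with the mean and SD of each group as a horizontal bar and whiskers. Belclare and Fur ewes reach higher than NWS and Suffolk ewes in the synchronised states, and ranges of neighbouring groups overlap.

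Ordered by median, the 12 groups ran from Belclare at the synchronised follicular phase down to Suffolk in the natural follicular phase, with the 6 Belclare and Fur groups in the upper 6 places. No group differed from its neighbour in this order by more than the larger of their SDs, and all neighbouring ranges overlapped. The largest step between neighbours was 0.632 CPM, between Belclare and Fur at the luteal phase.

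The difference that chose the gene was large in these ewes. At the synchronised follicular phase EGFL6 was 3.47-fold higher in Belclare than in Suffolk (log2 fold change 1.79, SE 0.37), and 7 of 10 Belclare ewes lay above all 11 Suffolk ewes. Against the same Suffolk ewes the log2 fold change was 1.13 (SE 0.33) for Fur and 0.16 (SE 0.33) for NWS. These values are a description of the ewes that chose the gene or share its control group.

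The luteal ewes were not used in that choice, and here EGFL6 was again higher in Belclare and Fur than in Suffolk. In Belclare its level was 1.9-fold that of Suffolk (log2 fold change 0.93, SE 0.23, 95% interval 0.47 to 1.39), with 7 of 10 Belclare ewes above all 10 Suffolk ewes and 10 of 10 above the Suffolk median. The adjusted p was 0.0399 by edgeR's quasi-likelihood test with Benjamini-Hochberg adjustment over 14811 genes, and a two-sided permutation test of EGFL6 alone gave p = 0.00058. Genes were called at an adjusted p under 0.05 and a fold above 1.5, which 2.43% of tested genes passed, 0.736% as higher in Belclare. The call was lost in 12 of the 20 fits that left out 1 ewe (Belclare replicates 2, 3, 5, 6, 9 and 10, and Suffolk replicates 2, 3, 4, 5, 7 and 8), where the adjusted p ran up to 0.0696. Over all 20 fits the log2 fold change stayed between 0.8 and 0.99, the unadjusted p between 0.000425 and 0.00193, and the number of genes called over the whole table moved between 52 and 1005. In a fit of all 12 groups together the adjusted p was 0.078.

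Luteal Suffolk replicate 7 stood apart in the steroid-responsive gene OXTR and was the highest of its group in GREB1. It had 226 CPM of the oxytocin receptor OXTR and 256 CPM of the oestrogen-induced transcript GREB1, while the other luteal Suffolk ewes had at most 8.13 and 185 CPM, and its EGFL6 level was 0.818 CPM, near the bottom of the group. Without this ewe the Belclare difference from Suffolk was 0.85 (adjusted p = 0.0504 by edgeR's quasi-likelihood test) and the Fur difference 0.81 (adjusted p = 0.056). Whether its state differed from its label was not tested.

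In Fur the luteal level was 1.86-fold that of Suffolk (log2 fold change 0.89, SE 0.31, 95% interval 0.28 to 1.51), with 5 of 9 Fur ewes above all 10 Suffolk ewes and the other 4 within the Suffolk range. The adjusted p was 0.0377 by edgeR's quasi-likelihood test, in a comparison where 13.8% of tested genes were called, 6.44% as higher in Fur. The unadjusted p of that test was 0.01, and 26.6% of tested genes had a smaller p. Adjusted over the 25 tested EGFL6 comparisons it was 0.0627, against 0.0168 for both luteal Belclare against Suffolk and luteal NWS against Belclare. The call was lost without any 1 of Fur replicates 2, 7 and 9 or Suffolk replicates 5, 7 and 10, with a log2 fold change down to 0.69 and an adjusted p up to 0.0923, and the fit of all 12 groups gave an adjusted p of 0.0516. Belclare and Fur were set against the same Suffolk ewes, so these calls share their controls.

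In NWS no difference from Suffolk was called at the luteal phase, where 4.35% of tested genes were. The fitted log2 fold change was -0.02 (SE 0.25, 95% interval -0.52 to 0.47, adjusted p = 0.965 by edgeR's quasi-likelihood test). Against Belclare, EGFL6 was lower in NWS with a log2 fold change of -0.97 (SE 0.26, 95% interval -1.47 to -0.46), and 5 of 8 NWS ewes lay below all 10 Belclare ewes. The adjusted p was 0.0124 by the same test, in a comparison where 11.6% of tested genes were called, 4.59% as lower in NWS, and an exact two-sided permutation test gave p = 0.00197. This call was kept in all 18 fits that left out 1 ewe, while the fit of all 12 groups gave an adjusted p of 0.0527. Fur and Belclare lay together at the luteal phase (log2 fold change -0.04, 95% interval -0.65 to 0.58), although 16.3% of tested genes were called between them.

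The comparison of NWS with Fur was made within Norway and used no ewe that chose the gene. At the synchronised follicular phase the log2 fold change was -0.98 (SE 0.32), with 5 of 10 NWS ewes below all 8 Fur ewes, and at the luteal phase it was -0.93 (SE 0.35), with 2 of 8 NWS ewes below all 9 Fur ewes. Neither passed over all genes, with adjusted p-values of 0.549 and 0.336 by edgeR's quasi-likelihood test. In these comparisons 0.00675% and 0.0405% of tested genes were called at all. Exact two-sided permutation tests of EGFL6 alone gave p = 0.0091 and p = 0.0443, and the quasi-likelihood p-values adjusted over the 25 tested EGFL6 comparisons were 0.0603 and 0.0758. In the natural follicular phase the log2 fold change was -0.5 (95% interval -1.25 to 0.26), and 0.0338% of tested genes were called.

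In the natural follicular phase no breed difference in EGFL6 was called. The log2 fold change against Suffolk was 0.43 (SE 0.47) for Belclare, 0.88 (SE 0.44) for Fur and 0.4 (SE 0.49) for NWS, with adjusted p-values of 0.766, 0.158 and 0.703 by edgeR's quasi-likelihood test. Over all tested genes 0%, 9.62% and 0.993% were called in these comparisons. Against Belclare it was 0.45 (SE 0.36) for Fur and -0.03 (SE 0.41) for NWS, where 15.7% and 13% of tested genes were called. The 3 differences from Suffolk moved with the Suffolk ewe at 6.8 CPM. Without it, an alternative chosen after seeing the data, the log2 fold changes were 1.05, 1.49 and 1.01, and the Fur difference was called (adjusted p = 0.011). Leaving out the Fur ewe at 8.92 CPM instead gave 0.64 for Fur. NWS replicates 4 and 10 of this state had 38.2 and 32.7 CPM of the mitochondrial gene COX-1, in the range of Fur ewes (25.8 to 49.2 CPM) and far below the other NWS ewes of the state (816 to 2580 CPM), and without both the NWS difference from Suffolk was 0.45.

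**Figure D2:**
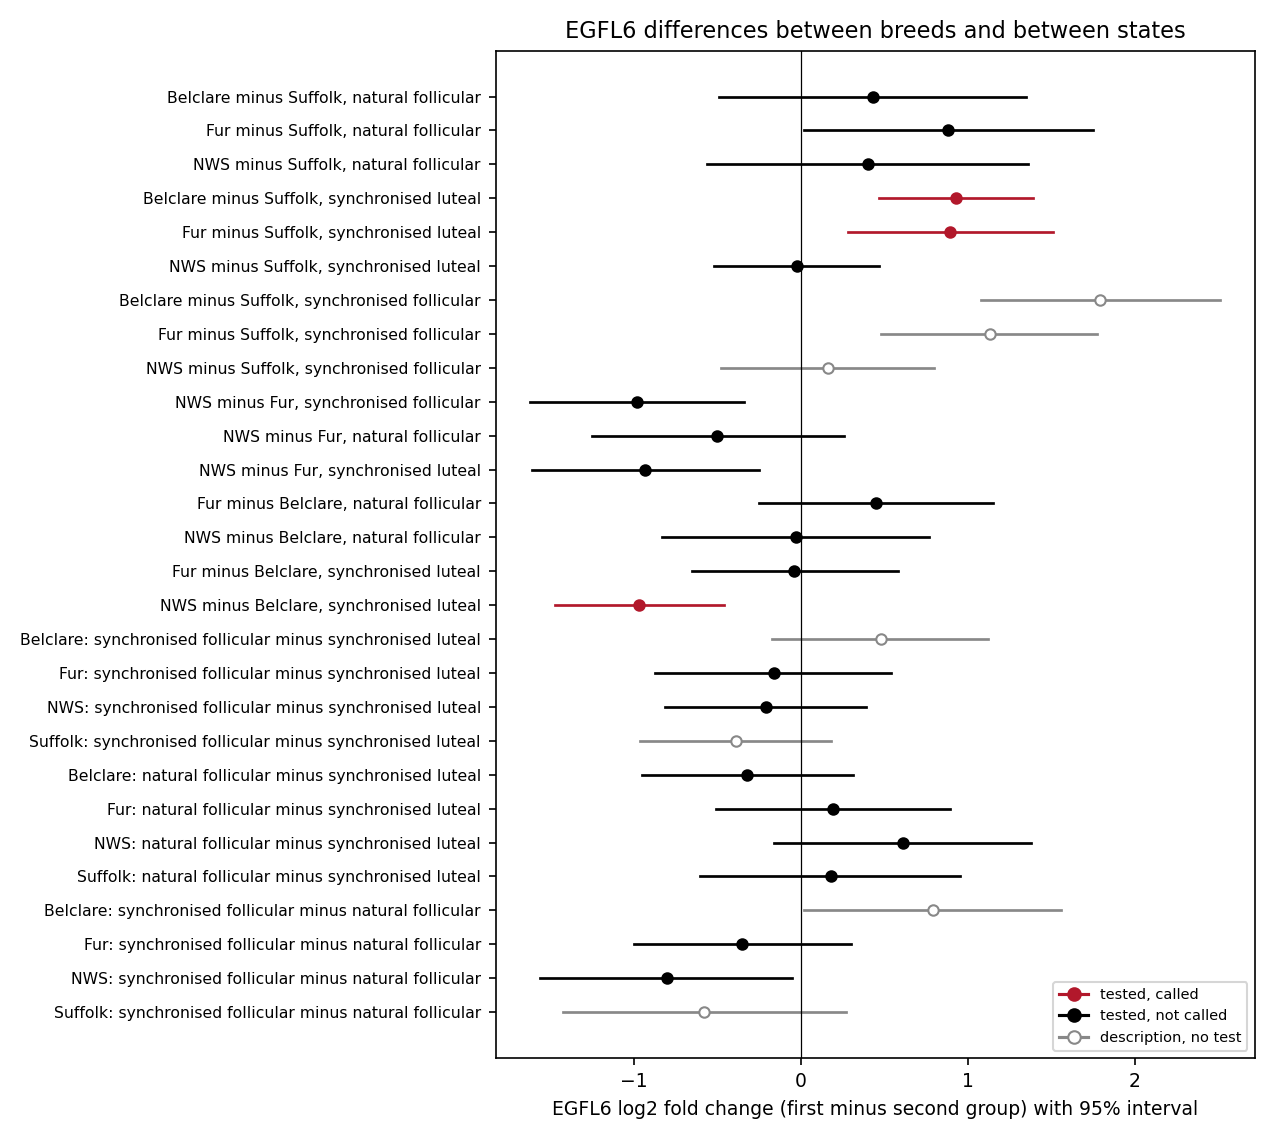
EGFL6 log2 fold change (first minus second group) with its 95% interval for each comparison of 2 groups, from edgeR. Red points mark the 3 called differences, all at the luteal phase, black points the other tested comparisons and open grey points those given as a description.

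No difference in EGFL6 between phases of the cycle was called. Between the follicular and luteal phases of the synchronised cycle its log2 fold change was -0.16 in Fur (95% interval -0.87 to 0.54) and -0.21 in NWS (95% interval -0.81 to 0.39), with adjusted p-values of 0.737 and 0.607 by edgeR's quasi-likelihood test. In the same fits 23.8% of tested genes were called in Fur and 22.1% in NWS, and 73.7% and 65.6% of tested genes had a larger absolute log2 fold change than EGFL6. The SE of EGFL6 was 0.36 in Fur and 0.31 in NWS, against a median SE over all tested genes of 0.15 and 0.16, and the intervals allow a change beyond the fold of 1.5 used for a call. In Belclare and Suffolk the same contrast, given as a description, was 0.48 (SE 0.33) and -0.39 (SE 0.29).

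Natural follicular ewes set against luteal ewes differed in both phase and cycle type, and EGFL6 was called in none of the 4 breeds. The log2 fold change was -0.32 (SE 0.32) in Belclare, 0.19 (SE 0.36) in Fur, 0.61 (SE 0.39) in NWS and 0.18 (SE 0.4) in Suffolk, where 19.7%, 18.5%, 9.11% and 12.7% of tested genes were called. A larger absolute log2 fold change than that of EGFL6 was found for 46.3% of tested genes in Belclare, 63.1% in Fur, 19% in NWS and 67.1% in Suffolk. The Fur value was -0.05 without the Fur ewe at 8.92 CPM, and the Suffolk value was -0.44 without the Suffolk ewe at 6.8 CPM. Between cycle types at the follicular phase, synchronised minus natural, it was -0.35 (SE 0.33) in Fur and -0.8 (SE 0.39) in NWS, where the unadjusted p was 0.0498 and the adjusted p 0.387 by edgeR, with 4.92% and 0.0135% of tested genes called. The 4 tests of whether the difference between states itself differed between breeds gave adjusted p-values of 0.776 to 1 by edgeR, and 0% to 1.23% of tested genes were called in them.

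Of the genes known to respond to ovarian steroids, GREB1 and OXTR differed between the states by several log2 units. GREB1, a transcript induced by oestrogen, had a mean of 648 CPM in natural follicular and 24.5 CPM in luteal Belclare ewes (log2 fold change 4.71, SE 0.31, adjusted p = 6.38e-09 by edgeR). OXTR, the oxytocin receptor, was 7.24 against 0.473 CPM in follicular and luteal Fur ewes of the synchronised cycle (log2 fold change 3.9, SE 0.67, adjusted p = 0.000197 by edgeR). The filter on low counts used only synchronised follicular ewes, so the direction of OXTR is not independent of the filter. Of 13 steroid-responsive genes that could be matched to an identifier, 4 were higher and 2 lower in NWS at the synchronised follicular phase, where 10.3% of tested genes were higher and 11.7% lower. The other 7 were not called in that comparison, and over the 6 tested phase comparisons the list median ran from 0.14 to 0.71. In the Belclare fit that gave the GREB1 value, EGFL6 was at -0.32 (95% interval -0.95 to 0.31).

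Some genes of the basement membrane and matrix glycoproteins were called between phases. LAMA1, LAMC1, HSPG2, COL4A1, COL4A2 and NID2 could not be matched to an identifier and were not tested. Of 18 tested identifiers, 5 were higher and 1 lower in follicular than luteal Fur ewes of the synchronised cycle, 8 were higher and 2 lower in NWS, and 12 were higher and 1 lower in natural follicular than luteal Belclare ewes. Over all tested genes 11.9%, 10.3% and 10.8% were called higher and 11.9%, 11.7% and 8.93% lower in these comparisons, and the list medians were 0.47, 0.68 and 1 against 0, -0.01 and -0.01 over all genes. Members of this and the other lists could be matched only where the study's lists of breed differences name them. They are therefore a selected set beside the shares over all tested genes. SPON2, a secreted matrix protein of the spondin family, was 186 against 70.2 CPM in Fur (log2 fold change 1.4, SE 0.2) and 214 against 80.9 CPM in NWS (1.39, SE 0.24). THBS2, a matricellular thrombospondin, was split over 3 identifiers, whose log2 fold changes in Belclare were 2.86 to 2.95, so the list counts it 3 times.

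Of 16 matrix-cutting and cross-linking enzymes, 4 were higher and 2 lower in follicular than luteal Fur ewes of the synchronised cycle, where 11.9% of tested genes were higher and 11.9% lower. In NWS 3 were higher and 2 lower, where 10.3% of tested genes were higher and 11.7% lower, so the counts of lower enzymes were near the share over all genes. FAP, a serine protease of activated fibroblasts, was 162 against 94.8 CPM in Fur (log2 fold change 0.75, SE 0.22) and 217 against 105 CPM in NWS (1.04, SE 0.23). ADAMTS2, which trims procollagen, was 36.8 against 23.2 CPM in Fur (0.65, SE 0.24). ADAM7, a family member without protease activity, went the other way, at 0.467 CPM in follicular and 33.5 CPM in luteal NWS ewes (log2 fold change -6.16, SE 0.85). Of 8 listed integrins 5 were tested. ITGA8 and ITGB1, which form the EGFL6 receptor, and ITGAV could not be matched to an identifier. Of the 5, ITGB8 was lower in follicular Fur ewes (-0.91, SE 0.21), where 11.9% of tested genes were lower. None was called in NWS, where 22.1% of tested genes were called. Between natural follicular and luteal Belclare ewes ITGB5 was higher (0.98, SE 0.11) and ITGAX lower (-1.04, SE 0.31). There 10.8% of tested genes were higher and 8.93% lower. The same contrast gave 1 higher integrin in NWS, 1 higher and 1 lower in Suffolk and 0 in Fur, with 9.11%, 12.7% and 18.5% of tested genes called.

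**Figure D3:**
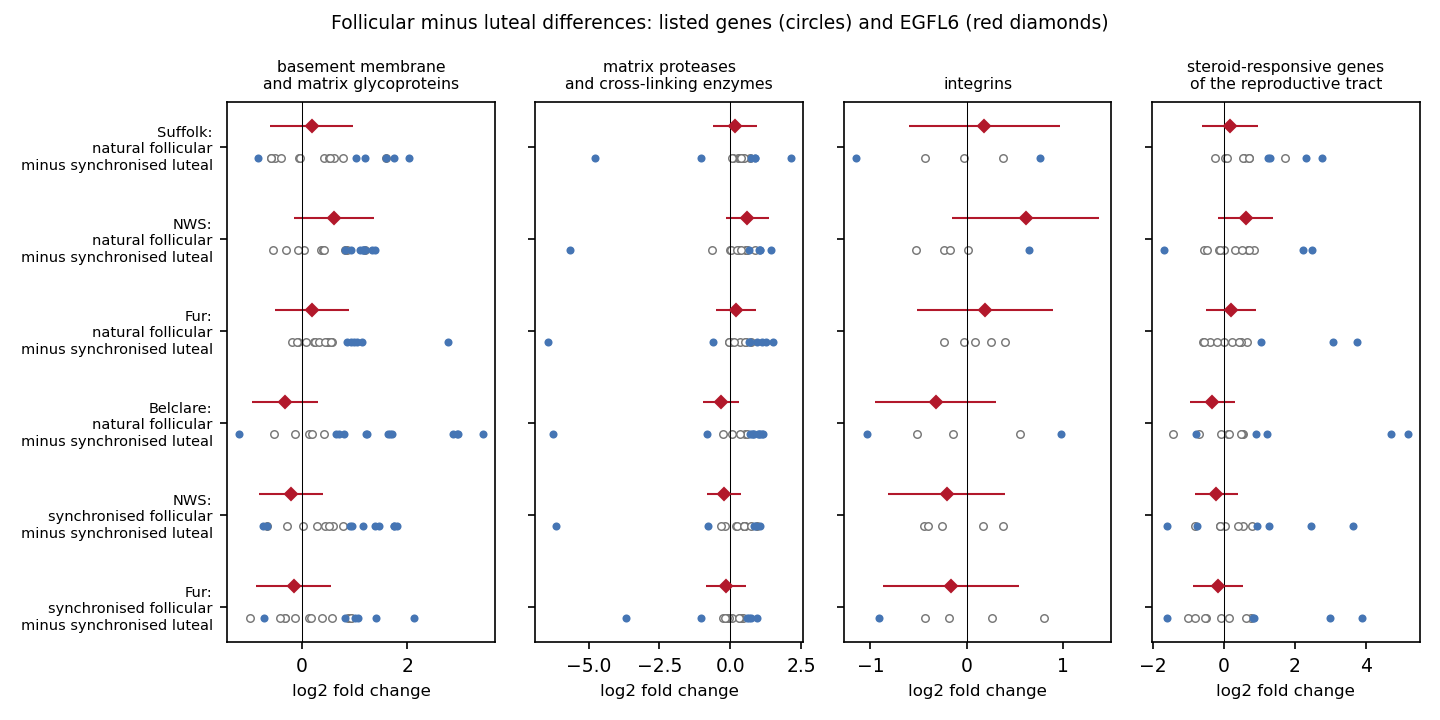
Log2 fold change, follicular minus luteal, of the genes in 4 lists (circles, filled where called) and of EGFL6 (red diamonds with 95% intervals) in the 6 tested comparisons. The EGFL6 intervals all include 0, while filled circles of the matrix and steroid-responsive lists lie mostly to the right of 0 and ADAM7 lies far to the left.

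At the luteal phase the medians of both matrix lists were below 0 in each breed against Suffolk. In Belclare against Suffolk 0 of 18 matrix identifiers were higher and 5 lower, with 1.69% of tested genes called lower, and the list median was -0.64 against -0.01 over all genes. In Fur against Suffolk 0 were higher and 6 lower, where 7.4% of tested genes were lower. Of the 16 enzymes, 0 were higher and 3 lower in Belclare, among them MMP2, a gelatinase, at 253 against 438 CPM (log2 fold change -0.8, SE 0.21, adjusted p = 0.046 by edgeR). In NWS against Suffolk, where the EGFL6 difference was -0.02, 4 of 18 matrix identifiers and 3 of 16 enzymes were lower and 0 higher, with list medians of -0.61 and -0.46 and 4.35% of tested genes called. In NWS against Belclare, where EGFL6 was lower, the list medians were 0.14 and -0.01. Most names in these lists came from genes that the study lists as higher in Suffolk than in Fur at the synchronised follicular phase, so their direction against Suffolk is not independent evidence. FRAS1, a basement membrane protein and the 1 member that could be matched of a list of EGFL6 partners and the FRAS/FREM complex, to which it belongs by the latter, averaged 2.42 CPM in luteal Fur ewes against 4.95 CPM in luteal Suffolk ewes (log2 fold change -1.04, SE 0.31, adjusted p = 0.0178).

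At the luteal phase 4 other genes that the study lists as higher in Belclare than in Suffolk also had higher means in Belclare. Their median log2 fold change was 1.49 against -0.01 over all genes. Of the 4, 1 was called higher, where 0.736% of tested genes were. In luteal Fur against Suffolk 1 of the 4 was called higher, where 6.44% of tested genes were. These genes were chosen on the same contrast as EGFL6. PADI2, a peptidylarginine deiminase, was 16.8 against 5.44 CPM in luteal Belclare and Suffolk ewes (log2 fold change 1.61, SE 0.3, adjusted p = 0.0194 by edgeR) and 0.39 (SE 0.32) in Fur against Suffolk. CLGN, a chaperone of the endoplasmic reticulum, was 5.08 CPM in luteal Belclare, 16 CPM in luteal Fur and 1.95 CPM in luteal Suffolk ewes. Its log2 fold change in Fur against Suffolk was 3.02 (SE 0.43, adjusted p = 0.000236 by edgeR). ADAM7 was 185 ± 167 CPM in luteal Belclare (SD, n = 10) and 28.7 ± 40.4 in luteal Suffolk (SD, n = 10). LMAN1L, a lectin related to a cargo receptor of the secretory pathway, was 50.5 ± 47 CPM in luteal Belclare (SD, n = 10) and 22.8 ± 30.8 in luteal Suffolk (SD, n = 10), and its log2 fold change of 1.14 (SE 0.67) was not called.

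The genes whose level was most like that of EGFL6 were sought by Pearson correlation of log2 CPM, as a description. After each group mean was taken away, correlations with the other 14810 genes over all mapped ewes ran from -0.569 to 0.629, and 25 were above 0.5. The closest was ENSOARG00000002851, which the sources used here do not name, at 0.629 and between 0.607 and 0.681 within each breed. It was followed by ENSOARG00000012923 at 0.593. Of the named genes, AP3B2, a subunit of an adaptor complex for vesicle transport, reached 0.516, CPT1B, which carries fatty acids into mitochondria, 0.476, C16orf89 0.467, LMAN1L 0.456 and ELMO3 0.442. By Spearman correlation these named genes were at 0.342 to 0.44. Within breeds AP3B2 was at 0.284 in Suffolk, 0.306 in Belclare, 0.7 in Fur and 0.761 in NWS. FRAS1 was at 0.195. The ewes share tissue sampling, library preparation and depth, and only 1338 of the tested identifiers had a name.

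Over the means of the 12 groups, ENSOARG00000009088 was closest at 0.927, followed by LMAN1L at 0.911 and ENSOARG00000015828 at 0.867, out of a range of -0.806 to 0.927. Further named genes were CACNG6, a calcium channel subunit, at 0.769, POFUT2, which adds fucose to thrombospondin repeats, at 0.701, CD177, a glycoprotein of neutrophils, at 0.598, and CDKL2, a kinase, at 0.557. With 12 points, 531 genes were above 0.5. LMAN1L was among the 5 closest named genes by both measures, at rank 2 of all genes over group means and 77 within groups. The study lists both EGFL6 and LMAN1L as higher in Belclare than in Suffolk at the synchronised follicular phase. Those groups are among the 12, so the 0.911 is not independent of that choice. CACNG6, POFUT2, CD177 and CDKL2 were also named from the study's lists of breed differences from Suffolk at that phase. Their correlations over group means share this limit. ENSOARG00000009088 was at -0.009 within groups.

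**Figure D4:**
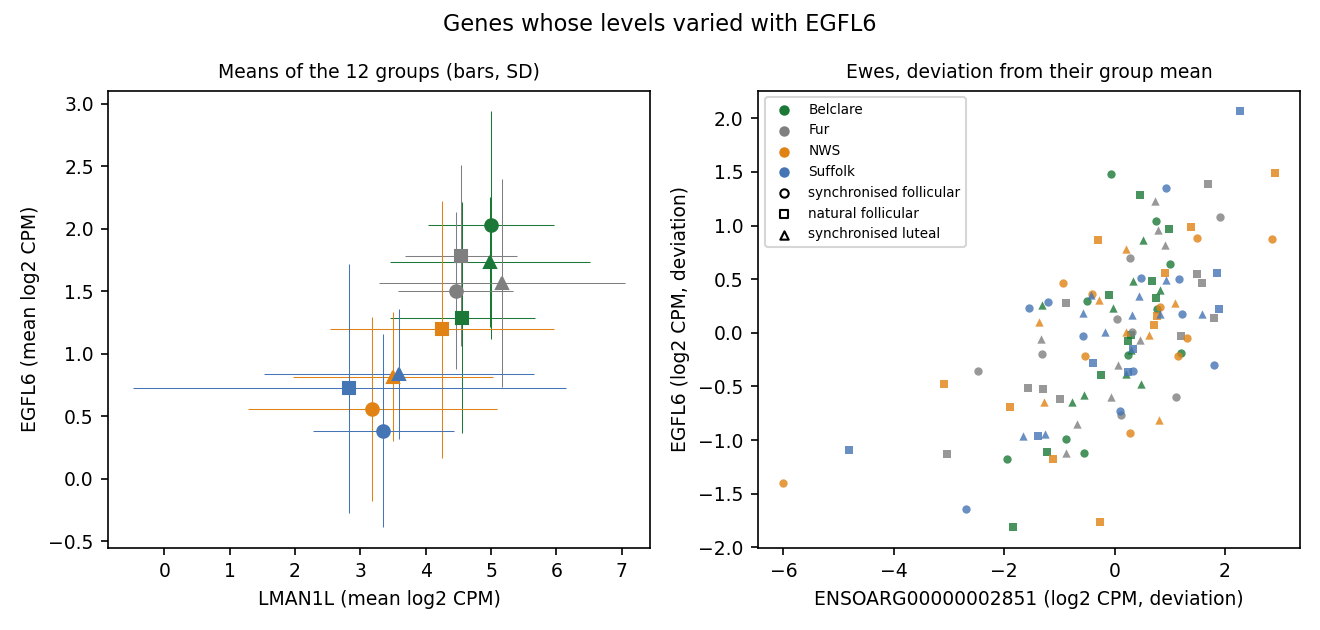
Left, mean log2 CPM of EGFL6 against LMAN1L in the 12 groups with SD bars. Right, deviation of EGFL6 from its group mean against that of ENSOARG00000002851 in each mapped ewe. Colours mark breeds and shapes mark states, group means rise together (0.911) and the deviations of ewes form a rising cloud (0.629). The 0.911 is not independent of the choice of both genes on Belclare against Suffolk.

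Cell type markers were checked because bulk tissue cannot tell fewer cells of a type from less RNA per cell. The defining genes DES, CDH1, VWF, PDGFRB and ITGB2 of smooth muscle, epithelium, endothelium, stroma and leukocytes were all detected in each luteal group, and no list was at 0. At the luteal phase the summed endothelial markers (8 of 10 tested) were 1030 to 1280 CPM in Belclare and 811 to 1650 in Suffolk, 552 to 903 in Fur and 524 to 1050 in NWS. The sums add CPM, so an abundant gene can set them. VWF averaged 912 CPM in luteal Belclare ewes, where the median endothelial sum was 1150 CPM. The stromal list shares MMP2, FAP and other genes with the matrix lists. Summed stromal markers (8 of 10) were 592 to 1540 CPM in Belclare, 1340 to 3090 in Suffolk, 765 to 1920 in Fur and 670 to 2320 in NWS. Summed epithelial markers (16 of 16) were 3120 to 5120 CPM in Belclare, 2700 to 5180 in Suffolk, 1170 to 3580 in Fur and 2000 to 3360 in NWS.

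Smooth muscle markers (5 of 8) were 81.2 to 2310 CPM in luteal Belclare, 322 to 982 in Suffolk, 588 to 9410 in Fur and 948 to 3910 in NWS, and leukocyte markers (13 of 14) were 143 to 332, 152 to 278, 59.4 to 175 and 88 to 244. Luteal Belclare and Fur ewes did not overlap in endothelial sums, and they overlapped in epithelial, stromal, smooth muscle and leukocyte sums. Within groups, over all mapped ewes, EGFL6 correlated with the summed endothelial markers at 0.284, with stromal markers at -0.123, with smooth muscle at -0.11, with leukocytes at 0.032 and with epithelium at 0.002. The part of cell makeup in the breed differences was not tested.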

How the data were processed

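The deposited files hold raw read counts per Ensembl gene, 1 file per library. Per the study's methods, the authors trimmed stranded mRNA libraries with BBDuk, aligned read pairs to Oar_v3.1 with STAR and counted uniquely mapped pairs with featureCounts. The submitters' processing notes name STAR 2.6.1b and Subread 1.6.3. The strand setting of the counting is not given in the sources used here. Columns of no labelled sample numbered 0.

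A gene entered the tests if it reached 1 CPM in 10 or more of the 39 ewes at the synchronised follicular phase. Genes present only in luteal or natural ewes were thus left out. Shares of genes called higher or lower between states therefore lean towards genes present at the synchronised follicular phase. Each comparison was fitted alone on the counts with TMM sizes by edgeR 4.0.16 (R 4.3.3) and its quasi-likelihood test, with Benjamini-Hochberg adjustment over all kept genes. The scripts were tested on simulated data. Intervals are at 95% from the fitted SE and a normal quantile. Correlations used log2 CPM with a prior count of 2. Permutation tests (scipy 1.17.1) of mean log2 CPM were exact where a group had fewer than 10 ewes and otherwise drew 100000 resamples. DESeq2 1.42.0, other scalings, no filter, a replicate block, a fit of all 12 groups and leaving out ewes were alternatives. The closest pair of libraries within a group differed by far more than sampling noise (chi-square per degree of freedom 16.5 over 490 pairs), so each counts once.

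The gene and the lists were chosen with earlier results of these data known. Named genes are EGFL6, the 5 named and at most 2 unnamed genes most like it by each measure, up to 4 called genes of each list by smallest p over the phase comparisons, the listed Belclare-high genes and 1 defining marker per cell type. Values of further comparisons are given for those genes. Gene names were taken from the study's supplementary lists, which name 1352 identifiers. A library whose labels disagree on its state entered no comparison.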

Additional observations from a re-analysis of the deposited data

Results flagged for a closer look

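In the Fur natural follicular group, replicate 8 stood at 8.92 CPM of EGFL6 and the next ewe at 4.93. In the Suffolk natural follicular group, replicate 5 stood at 6.8 CPM and the next ewe at 2.32. Each was further from its group than Dixon's 95% critical value allows, a limit that chance passes in about 1 of 20 groups of normally distributed values. The limit was applied to CPM on a linear scale and not to log2 CPM, so that rate need not hold here. Suffolk at the synchronised follicular phase, with 11 ewes, is larger than the groups this limit was applied to and was not checked. Its highest ewe stood at 3.22 CPM and the next at 1.75, a gap of 0.503 of the group's range.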

How the results depend on the processing

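The 3 luteal calls kept their direction under every alternative run. Belclare against Suffolk was no longer called with the replicate number as a block (log2 fold change 0.92, adjusted p = 0.0812 by edgeR's quasi-likelihood test, with 18 genes called in place of 360) or in a fit of all 12 groups (0.93), and ran from 0.8 to 0.99 without 1 ewe. Fur against Suffolk was lost with the block (0.61, adjusted p = 0.2) and in the fit of all groups (0.9), and ran from 0.69 to 1.0. NWS against Belclare was lost in the fit of all groups (-0.97) and ran from -1.11 to -0.84. In 0 of 21 comparisons was every pair of ewes with 1 replicate number correlated in its deviations at over 0.1. For luteal Fur against Suffolk 5 of 9 pairs were over 0.1, and 3 ewes matched best with their own number. For luteal Belclare against Suffolk these were 2 of 10 and 0. The check asks this of every pair, so it cannot show whether some ewes shared a number for a reason, which was not tested. The cause of these changes was not tested.

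Permutation tests of EGFL6 alone passed 0.05 for Fur against Suffolk in the natural follicular phase (1.06) and for NWS against Fur at the synchronised follicular (-0.94) and luteal (-0.75) phases. Fur against Suffolk in the natural follicular phase ran from 0.64 to 1.49 without the 2 ewes that stood apart in turn, and Belclare against Suffolk from 0.24 to 1.05. The fits without these 2 ewes, and those that left out 1 ewe from luteal Fur against Suffolk and NWS against Belclare, were chosen after seeing the data.

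Small differences changed sign. NWS against Belclare in the natural follicular phase was 0.01 without NWS replicates 4 and 10, and luteal Fur against Belclare 0.05 on total counts. Follicular against luteal Fur ewes gave 0.04 with the block and -0.38 to 0.04 without 1 ewe, NWS -0.33 to -0.05. Natural follicular against luteal ewes gave -0.05 in Fur without replicate 8, and in Suffolk -0.28 with the block, -0.12 by mean log2 CPM and -0.44 without replicate 5. The test of whether Belclare and Suffolk differed between states gave 0.12 without Suffolk replicate 5. For Fur and Suffolk it gave -0.02 with DESeq2 size factors and with DESeq2, -0.03 on total counts, -0.01 without the filter and in the fit of all groups, and -0.24 to 0.62 without 1 ewe. By Spearman correlation 13 of the 20 genes most like EGFL6 within groups were kept, and 12 of 20 over group means.

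EGFL6 had 4 to 207 counts per ewe, and its spread among ewes was wider than counting error. With that spread, the phase comparisons cannot exclude a change that lies within their intervals.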

Other observations

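The Suffolk library whose labels disagree on its state held 45 counts of EGFL6 among 15387419, or 2.57 CPM. It entered no comparison.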
